A study of Caenorhabditis elegans with 2 samples.

Results

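The genes eff-1 (WBGene00001159) and aff-1 (WBGene00016625) encode the fusogens of the Caenorhabditis elegans epidermis, and binding of the nuclear receptor NHR-25 was described at both loci from ChIP-seq peak lists of L3 larvae. They were chosen by name and are 2 of 19973 nuclear protein-coding genes in Ensembl release 115. For each gene, every deposited summit inside the gene or up to 10 kb upstream of its annotated 5′ end was taken. The study holds 1 group of 2 samples, labelled as biological replicates 1 and 2. Both samples were whole worms of strain OP33, which carries the unc-119(ed3) mutation on chromosome III and the transgene wgIs33, which encodes NHR-25 with a C-terminal GFP and FLAG tag. The peaks are those of this fusion protein, and its level relative to native NHR-25 was not analysed here. The worms were L3 larvae of mixed sex and unknown age. No other genotype, stage or treatment was analysed here, and no source used here states how many worms made up a sample. Because whole worms were used, a peak in few cells and a weak peak in many cells cannot be told apart.

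Cell fusion builds the worm's large epidermal syncytia. EFF-1 is the transmembrane fusogen that drives most epidermal fusions, among them the joining of seam cell daughters to the main hypodermal syncytium hyp7 in the larva. AFF-1 is a related fusogen that acts in the fusion of the anchor cell and in the terminal fusion of the seam cells with each other. NHR-25 is the worm's receptor of the SF-1/FTZ-F1 type. It is needed in the epidermis and for molting, and binds as a single molecule to an extended half-site with the core CAAGGTC or CAAGGCC.

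The 2 loci differed in what the lists held. Upstream of eff-1, 1 peak was in the list that the authors label as thresholded by irreproducible discovery rate (IDR). In these files that list holds exactly the 5017 pooled regions of highest signal, 4688 of them matched to within 100 bp in both replicates, so a place in it reflects pooled height. The locus of aff-1 held 0 IDR peaks. The eff-1 peak spans chrII:8338854-8339203 (ce11), in intergenic sequence, and its summit at 8339029 lies 7655 bp upstream of the eff-1 5′ end. Its deposited signal, a height per peak without a stated scale, was 48.7 in the list from both replicates together. In the replicate lists the nearest summits had signals of 17.2 in replicate 1, at the same base, and 32.0 in replicate 2, at 33 bp from it. The peak therefore appeared in both replicate lists, with the higher signal in replicate 2. An IDR summit in the gene or 10 kb upstream was present for 40.4% of all protein-coding genes, so that its presence at 1 of the 2 genes is near what the genes at large show.

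The 4 stretches of chromosome II (ce11, read from the RefSeq WBcel235 sequence) below are printed to show the bases around the summits and half-site cores described here. The first is the 201 bases around the eff-1 IDR summit, chrII:8338929-8339129, and the second the next strongest region upstream of eff-1 with the half-site core beside it, chrII:8338141-8338431. The third, chrII:6863924-6864180, holds the half-site cores just upstream of aff-1, and the last is the 201 bases around the strongest pooled summit at aff-1, chrII:6864981-6865181. The eff-1 stretches are on the plus strand and the aff-1 stretches on the minus strand, each the strand of its gene. Capitals mark the half-site core (CAAGGTC or CAAGGCC) and the GATA motif TGATAA, on either strand.
eff-1 IDR peak: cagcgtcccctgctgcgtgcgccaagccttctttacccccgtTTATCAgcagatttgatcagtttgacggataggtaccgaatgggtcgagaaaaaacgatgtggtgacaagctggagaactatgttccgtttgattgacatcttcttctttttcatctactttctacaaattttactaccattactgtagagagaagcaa
eff-1 second region: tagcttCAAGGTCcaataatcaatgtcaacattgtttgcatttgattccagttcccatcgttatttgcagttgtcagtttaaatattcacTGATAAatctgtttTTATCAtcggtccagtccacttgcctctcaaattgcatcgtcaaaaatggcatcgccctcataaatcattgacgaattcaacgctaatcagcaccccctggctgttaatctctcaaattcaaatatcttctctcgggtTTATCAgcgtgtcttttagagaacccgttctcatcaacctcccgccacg
aff-1 upstream half-sites: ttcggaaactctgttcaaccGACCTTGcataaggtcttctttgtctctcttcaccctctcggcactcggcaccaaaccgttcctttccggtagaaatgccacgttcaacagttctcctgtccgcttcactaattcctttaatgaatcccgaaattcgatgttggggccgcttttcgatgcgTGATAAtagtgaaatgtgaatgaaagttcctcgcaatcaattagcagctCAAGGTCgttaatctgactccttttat
aff-1 strongest pooled region: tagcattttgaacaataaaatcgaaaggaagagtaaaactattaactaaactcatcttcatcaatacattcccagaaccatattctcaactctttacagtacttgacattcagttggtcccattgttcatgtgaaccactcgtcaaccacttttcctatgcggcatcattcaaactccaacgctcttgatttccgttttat

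The annotation around eff-1 leaves a long free stretch upstream. The gene runs from 8346684 to 8350563 on the plus strand of chromosome II, has 3 annotated transcripts whose 5′ ends lie within 10 bp of each other, and is 3880 bp long. The next protein-coding gene upstream, C26D10.7, ends 10105 bp before it. Only 4.32% of protein-coding genes had 10 kb or more of upstream sequence free of other protein-coding genes. The eff-1 IDR summit lies 2451 bp past the end of C26D10.7, which is transcribed in the same direction, and 615 bp from the 5′ end of the short non-coding gene C26D10.8. By distance to an annotated protein-coding 5′ end, C26D10.7 is the nearest gene to the summit at 5086 bp and eff-1 the next at 7655 bp, so that the assignment to eff-1 rests on the upstream position alone. Summits this far from any protein-coding 5′ end were uncommon, since 515 of the 5017 IDR summits (10.3%) lay farther away and the median distance was 959 bp.

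The eff-1 peak stood in the lower part of the IDR list. It ranked 4322 of 5017 by pooled signal, and 13.9% of the IDR peaks were weaker. The lowest IDR peak had a pooled signal of 42.20, and the highest pooled region outside the list had 42.19. By signal, the peak ranked 3402 of 30000 regions in replicate 2 and 6766 of 30000 in replicate 1. It was therefore within the 5017 strongest regions of replicate 2 and outside those of replicate 1. Its pooled −log10 q-value was 3.24, below the pooled maximum of 3.86 at which 71.8% of the IDR peaks stood. In replicate 2 it stood at that list's maximum of 4.02, as did 17.6% of the replicate 2 regions. In replicate 1 it was 1.18, where the maximum was 3.72.

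The signal of the eff-1 peak was 1.86 times as high in replicate 2 as in replicate 1, or 0.90 on the log2 scale. For the 4688 IDR peaks that both replicates matched to within 100 bp, the median of this log2 ratio was 0.11 (SD 0.73). A higher ratio than that of the eff-1 peak was found for 12.2% of these peaks. Among the 429 such peaks within 250 ranks of the eff-1 peak, the median signal was 24.6 in replicate 1 and 24.3 in replicate 2, with 5th to 95th percentiles of 11.99 to 35.9 in replicate 1 and 12.4 to 37.2 in replicate 2. Both eff-1 values were inside these ranges, the replicate 1 value in the lower part and the replicate 2 value in the upper part.

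**Figure D1:**
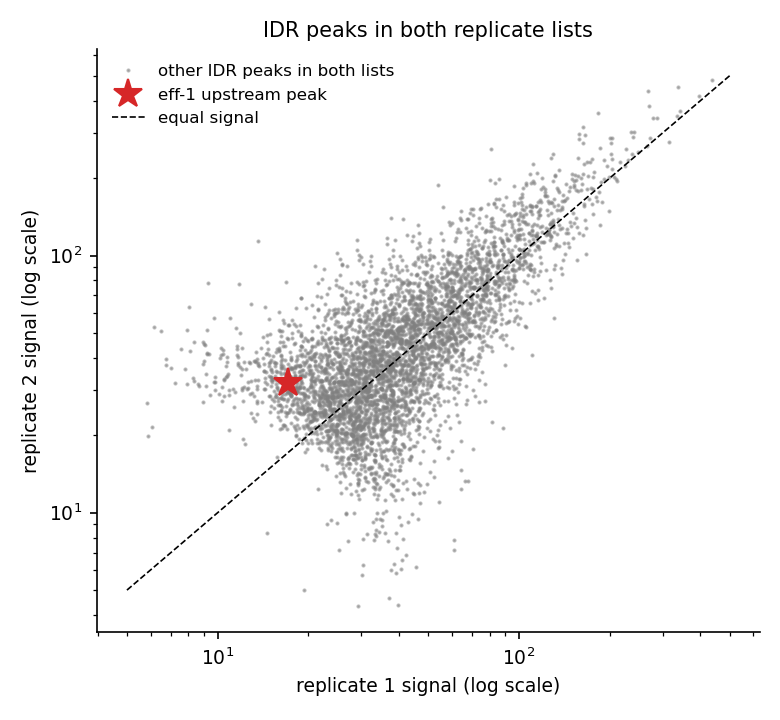
Signal in replicate 2 against signal in replicate 1, both on log scales, for the IDR peaks matched to within 100 bp by both replicates (grey points), with the eff-1 upstream peak as a star. The star, at 17.2 and 32.0, lies above the dashed line of equal signal and toward the low end of the replicate 1 axis.

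Further regions surrounded the eff-1 peak in the lists that also hold background. The pooled list had 13 summits at the eff-1 locus, 10 upstream and 3 inside the gene, against a median of 3 over all protein-coding genes in windows built the same way. More pooled summits than at eff-1 were found for 2.76% of genes. Per kb of window the value was 0.94 at eff-1 and 0.24 at the median gene, and 3.94% of genes were denser. Replicate 1 had 9 summits and replicate 2 had 13, against a median of 3 in each list. Most of these summits were weak: 10 of the 13 pooled ones had a −log10 q-value under 1. The pooled and replicate lists were deposited as input to the IDR step and hold background regions, so that these counts describe the lists and are not counts of bound sites.

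Apart from the IDR peak, the strongest of these regions also lay upstream. The second region, with its summit 8353 bp upstream at 8338331, had a pooled signal of 34.5, with 15.5 in replicate 1 and 18.7 in replicate 2. It ranked 6142 in the pooled list, which is 1125 ranks past the end of the IDR list, and its summit falls inside C26D10.8. The third, 4680 bp upstream, had a pooled signal of 24.0 and 14.3 in replicate 2. Replicate 1 had no summit within 100 bp of it, and the nearest replicate 1 summit, 4562 bp upstream of eff-1, had a signal of 10.7. Replicate 1 also had a region of signal 16.9 at 9192 bp upstream that had no counterpart within 100 bp in replicate 2. Both replicates matched only 3 of the 13 pooled summits to within 100 bp, and neither replicate matched 2 of them. Besides the IDR peak and the second region, the summit matched in both was one 5356 bp upstream with a pooled signal of 13.5.

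Close to its 5′ end and inside the gene, eff-1 showed weak regions only. The promoter window, taken from 2000 bp upstream to 200 bp downstream of the 5′ end, held 0 IDR summits, as compared with at least 1 for 18.4% of protein-coding genes. The same window held 4 pooled summits with signals from 8.86 to 12.6. Inside the gene, the 3 pooled summits had signals of 8.86 in coding sequence 69 bp downstream, 10.03 in coding sequence 2106 bp downstream and 13.3 in an intron 3167 bp downstream of the 5′ end. None of the 3 had a replicate 1 summit within 100 bp. Replicate 2 had 5 summits inside the gene, from 4.23 to 9.19. An IDR summit inside the gene was present for 5.77% of protein-coding genes, and for neither fusogen.

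**Figure D2:**
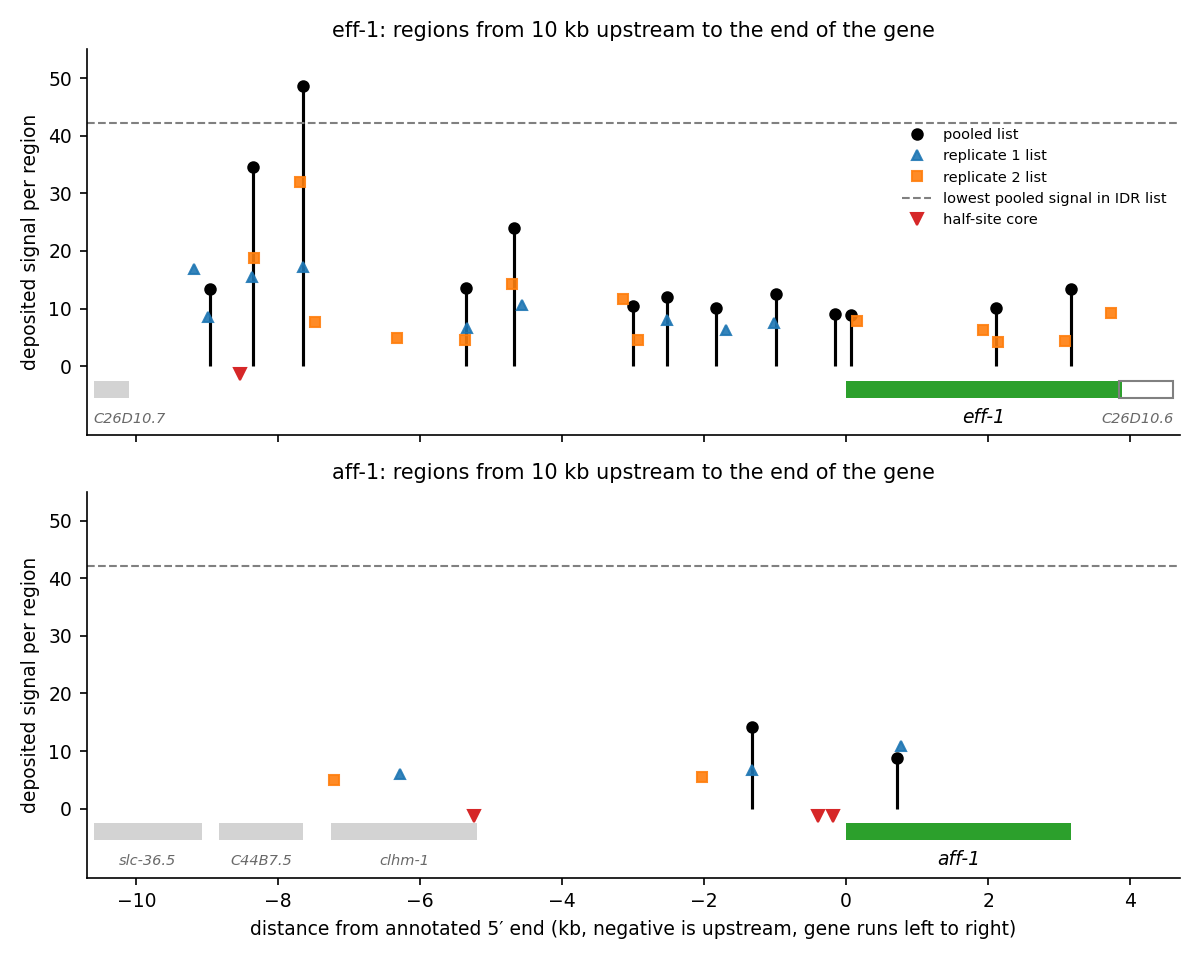
Deposited signal of every region at eff-1 (top) and aff-1 (bottom) against distance from the annotated 5′ end in kb, for the pooled list (black), replicate 1 (blue triangles) and replicate 2 (orange squares). Green bars are the members, grey bars neighbouring protein-coding genes (open where it overlaps the end of eff-1), red marks half-site cores, and the dashed line is the lowest pooled signal in the IDR list, 42.2; of all pooled regions drawn, the eff-1 region 7655 bp upstream alone lies above it.

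At aff-1 every deposited region was weak. The gene runs from 6860582 to 6863752 on the minus strand of chromosome II, has 1 annotated transcript and is 3171 bp long. Its upstream sequence is free of protein-coding genes for 5193 bp, up to clhm-1, a calcium homeostasis modulator channel gene, and the 10 kb window also reaches C44B7.5 and slc-36.5. The pooled list held 2 summits at the locus, against a median of 3 over all genes. The stronger, 1329 bp upstream at 6865081, had a pooled signal of 14.1, which is 0.334 of the lowest IDR signal, and ranked 15859 of 30000. Replicate 1 had a summit at the same base with a signal of 6.65, and replicate 2 had no summit within 100 bp. The other pooled summit, in coding sequence 719 bp downstream of the 5′ end, had a signal of 8.77. The nearest replicate 1 summit had 10.9, and replicate 2 again had no summit within 100 bp.

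The replicates shared no region at aff-1. Replicate 1 had 3 summits there, from 5.95 to 10.9, and replicate 2 had 2, with signals of 4.95 in an untranslated exon of clhm-1 and 5.51 at 2027 bp upstream of aff-1. None of the replicate 2 summits lay within 100 bp of a replicate 1 summit. At least 1 pooled region was present for 80.4% of protein-coding genes, so that an entry in that list carries little information. IDR peaks did lie farther from aff-1. The nearest, 10485 bp downstream of the 5′ end and past the end of the gene, had a signal of 82.3, with 61.1 in replicate 2 and 21.6 in replicate 1. Upstream, the nearest lay at 28254 bp in an untranslated exon of adal-1, with a signal of 64.1. Within 20 kb of the 5′ end on either side there were 3 IDR summits around eff-1 and 4 around aff-1, and within 50 kb 7 around eff-1 and 21 around aff-1. Counts in these wider windows were not computed for all genes, so they cannot be placed among them. Neither clhm-1, C44B7.5 and slc-36.5 nor the flanking genes dnj-5 and C44B7.7 had an IDR summit in the gene or in their promoter windows. Beside eff-1, the collagen gene col-77 had 1 in its promoter window, and C26D10.6 and C26D10.7 had 0.

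Among all genes, both members lay within the usual range of IDR summits. More than the 1 summit of eff-1 was found for 16.7% of genes, exactly 1 for 23.7% and none, as at aff-1, for 59.6%. Windows that reach 10 kb upstream often take in other genes. With the upstream part ended at the next protein-coding gene, eff-1 still had 1 IDR summit and aff-1 still had 0, and 21.2% of genes had at least 1. Of the 862 genes with 10 kb of free upstream sequence, eff-1 included, 300 had an IDR summit in gene or upstream (34.8%), with a median of 3 pooled summits. More pooled summits than at eff-1 were found for 6.96% of these. Of the 2570 genes with at least as much free upstream sequence as aff-1, 963 had an IDR summit (37.5%), and 45.0% had no more pooled summits than aff-1.

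**Figure D3:**
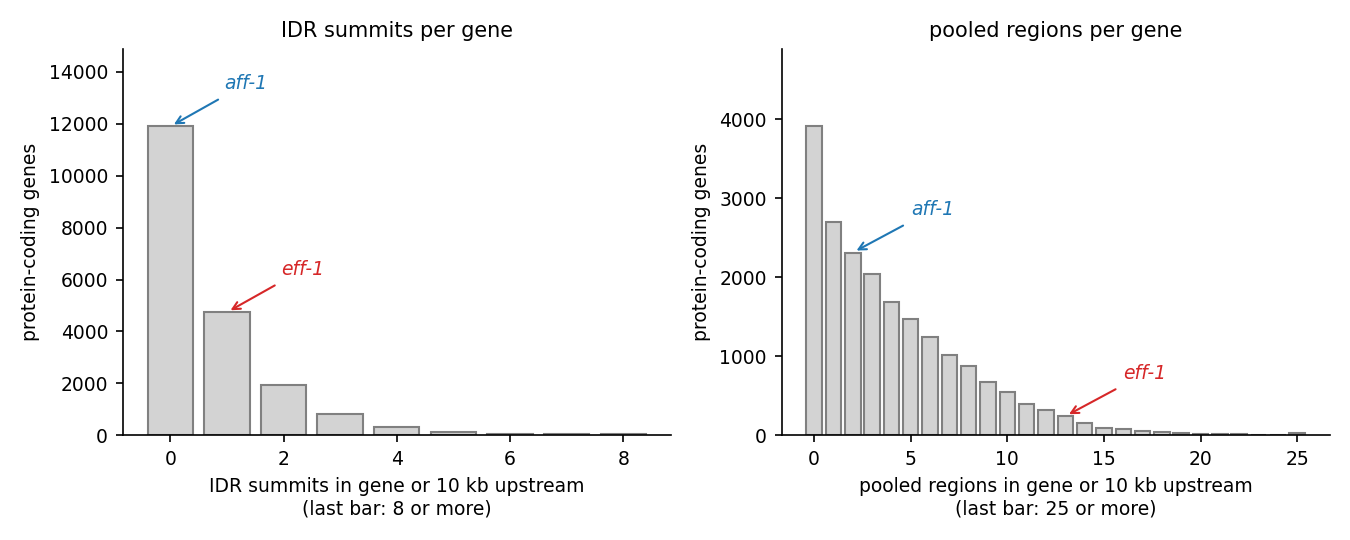
Number of protein-coding genes by IDR summits (left) and by pooled regions (right) inside the gene or 10 kb upstream, with the bars that hold each member marked. With 1 and 0 IDR summits eff-1 and aff-1 are in the most filled bars of the left panel, whereas 13 pooled regions put eff-1 in the right tail and 2 leave aff-1 near the median of 3.

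No half-site core lay within 100 bp of a pooled summit at either gene. The share over all pooled summits was not computed, so this absence is not shown to be particular to these genes. No core lay within 100 bp of the eff-1 IDR summit, nor within 150 bp. Of all 5017 IDR peaks, 6.80% had one within 100 bp. The whole eff-1 locus held 1 core, a CAAGGTC from 8338147 to 8338153, which starts 8537 bp upstream of the gene and 184 bp from the summit of the second region. It lies at the edge of that region: the replicate 1 interval, from 8338149 to 8338484, overlaps it, and the pooled interval starts just past it at 8338156. That is 0.072 sites per kb, against 0.076 over the nuclear genome. The aff-1 locus held 3 cores, or 0.23 per kb, a rate that rests on few sites. The farthest, a CAAGGCC 5246 bp upstream, lies inside the neighbouring gene clhm-1. The nearer ones, both CAAGGTC, start 192 and 402 bp upstream of the aff-1 5′ end. These face opposite strands, as the printed stretch shows, and the nearest pooled summits lie 914 and 924 bp away with signals of 8.77 and 14.1.

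A promoter with 2 cores is rare. The 500 bp upstream of the 5′ end held 2 or more for 28 genes (0.140%), aff-1 among them, and at least 1 for 744 genes (3.73%), which do not include eff-1. IDR summits lay in the promoter windows of 10 of the 28 genes and of 207 of the 744 genes (27.8%), against 18.4% of all genes. This set was looked up after the aff-1 sequence had been read, and a match of letters shows neither a bound nor an unbound site.

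Motifs of other factors of fusing cells were searched in the same 201 bases. GATA factors specify epidermal and seam cells, AP-1 includes FOS-1, and Hox proteins act with Exd-family cofactors. The GATA motif TGATAA was present once within 100 bp of the eff-1 IDR summit, starting 58 bp from it, as in 14.9% of IDR peaks. The second eff-1 region had 3 within 100 bp of its summit and the strongest aff-1 region had 0. The AP-1 motif TGANTCA (6.398% of IDR peaks) was in none of these 3 windows. The Hox-Exd core TGATNNAT (13.97% of IDR peaks) was in neither the eff-1 IDR window nor the aff-1 window, and occurred 2 times around the second eff-1 summit, where 1 of the matches overlaps a TGATAA. Over the whole loci TGATAA occurred 28 times at eff-1 (2.02 per kb) and 16 times at aff-1 (1.21 per kb), against 1.05 per kb in the nuclear genome. The Hox-Exd core occurred 21 times at eff-1 (1.51 per kb) and 14 times at aff-1 (1.06), against 0.92 per kb in the genome. The AP-1 motif occurred 6 times (0.43) and 5 times (0.38), against 0.31. The genome rates include coding sequence, and the rates in the windows of other genes were not computed. These rates therefore do not show an enrichment at the 2 loci. The 201 bases at the eff-1 IDR summit were 43.8% G and C, against a median of 41.8% over IDR peaks.

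The members were set beside a list of 34 genes, chosen as regulators of fusogen genes or of epidermal fusion, or as trafficking partners. Of the 34, 27 had an IDR summit in the gene or 10 kb upstream (79.4%, exact Clopper-Pearson 95% interval 62.1 to 91.3, against 40.4% of all genes), and 7 had none. In the strongest 5017 regions of single replicates, the share was 83.8% ± 2.08 (SD, n = 2). The list was chosen with earlier results of these data known, and some of its genes are neighbours. The interval takes the genes as independent draws, so it describes the count only. The listed genes are also longer, with a median of 6141 bp against 2027 bp over all genes, which widens their windows. The part of gene length in the result was not tested. In the promoter window, 17 of the 34 held one, against 18.4% of all genes. That share depended on the window and the threshold: it was 17.6% with 500 bp upstream, against 11.2% of all genes, and 29.4% with the 2508 strongest IDR peaks, against 10.62%. The median gene of the list had 2 IDR summits and the median of all genes was 0. In the pooled list, which holds background regions, the medians were 10.5 and 3 summits. The listed genes thus also had more summits in the list that holds background.

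Partners of the Hox gene lin-39, which keeps vulval precursor cells from fusing, held some of the tallest peaks. At ceh-20, the Exd homologue, the strongest summit had a signal of 329.4 (154.5 in replicate 1, 179.7 in replicate 2), but it lay 7800 bp upstream within the microRNA gene cel-mir-5549. At unc-62, the Meis homologue, the strongest of 5 summits had 206.7 (83.1 in replicate 1, 128.1 in replicate 2) and lay in an untranslated exon of the gene. lin-39 itself had 1 IDR summit of signal 71.1, in an intron 1782 bp downstream of its 5′ end. mab-5, another Hox gene, had none.

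Other regulators of the timing and place of fusion varied as widely. fos-1, the AP-1 gene that acts in the anchor cell, had 1 summit of 298.4, in intergenic sequence 3097 bp upstream. lag-1, the transcription factor of the Notch pathway, had one of 294.7 in an intron. eor-2, which encodes a nuclear protein of Ras signalling, had one of 236.9 at 140 bp upstream. The transcription factor genes blmp-1 and nhr-23, both known from molting, had strongest summits of 232.5 (3102 bp upstream) and 232.1 (in an intron), and lin-14, a gene of developmental timing, had 9 summits with a strongest of 200.5. egl-18 and elt-6, neighbouring GATA genes of the seam cells, had none. The eff-1 peak at 48.7 was lower than the strongest summit of each of the 27 listed genes that had one, the lowest of these being 51.2 at eor-1. Only 13.9% of all IDR peaks were weaker than the eff-1 peak, so a taller peak is usual in the IDR list as a whole. The strongest of several summits, as at lin-14 with 9, also tends to exceed a single summit such as that of eff-1. The share of all genes with a strongest summit above 48.7 was not computed. A summit within 10 kb upstream can belong to another gene, and the counts do not show which gene it serves.

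**Figure D4:**
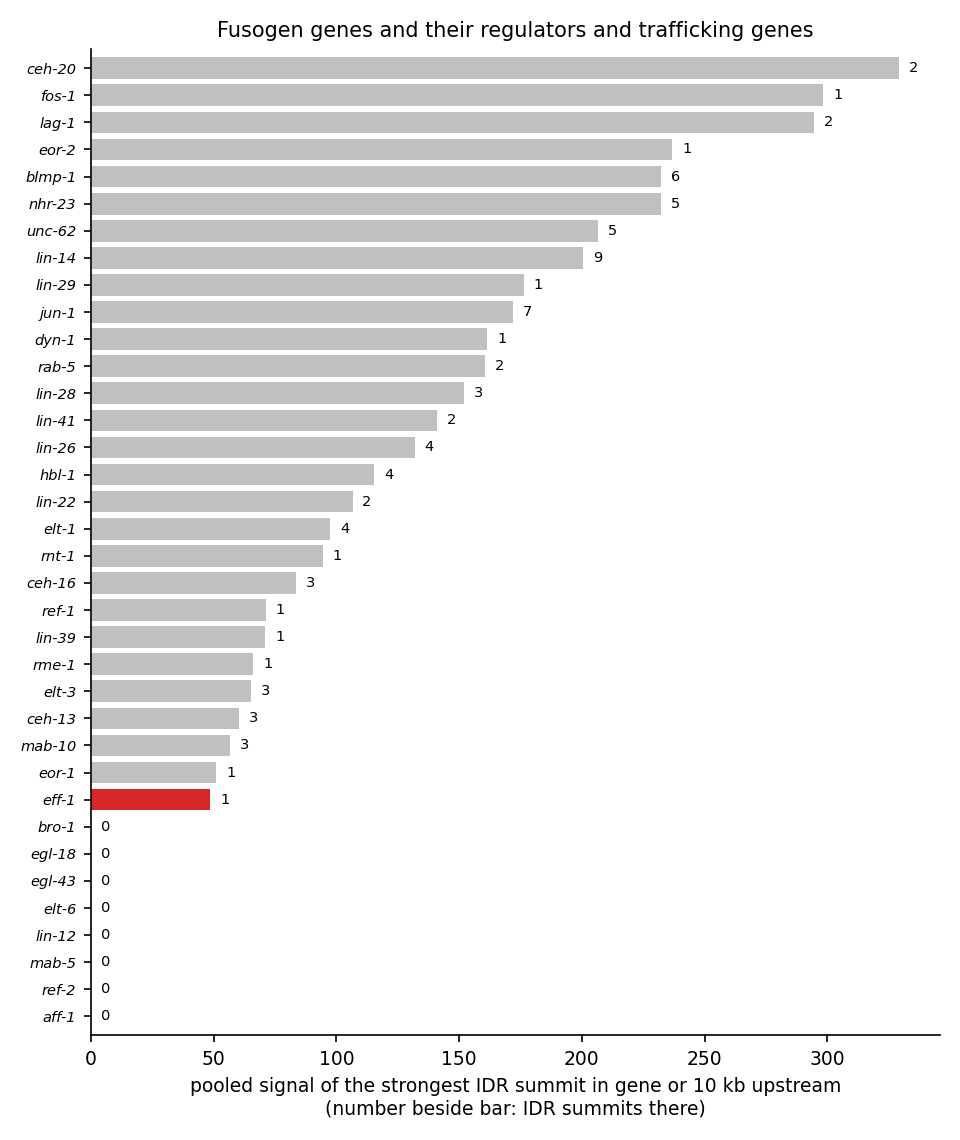
Pooled signal of the strongest IDR summit in the gene or 10 kb upstream for the 34 listed genes (grey) and the members (red), with the number of IDR summits beside each bar. eff-1, at 48.7, is lower than all 27 listed genes that have a summit, and aff-1 stands with the 7 that have none. Most peaks of the whole IDR list are taller than the eff-1 peak, with 13.9% weaker. Where a gene had several summits the strongest was drawn, which tends to give a taller bar than a single summit.

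Genes were ranked by likeness to eff-1 in the place and height of their peaks, so the likeness of the nearest ones follows from the choice. Likeness was measured as the Euclidean distance of log2(signal + 1) in 6 position bins in each of the 2 replicates, 12 values per gene. The 3 nearest genes were T07A5.7 (distance 0.012), try-3, a gene of the trypsin-like protease family (0.072), and Y73B6BL.37 (0.092). Each had 1 IDR summit, at 7833, 8338 and 6162 bp upstream, with pooled signals of 48.0, 47.7 and 55.2. In all, 1630 other genes had a single IDR summit 10 to 5 kb upstream. For aff-1 no gene could be singled out, since 11896 other genes had no IDR summit either and were equally near.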

How the data were processed

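ChIP-seq peak lists of NHR-25 in L3 worms were analysed for 2 replicates on ce11, which is the WBcel235 assembly of the annotation used (Ensembl release 115). According to the deposited index text, a replicate's list came from its own alignment with a control alignment. The pooled list used both replicates with the control, and the IDR list was made from these 3 lists. Peaks were thus called per sample and on pooled samples. No source used here names the aligner or the peak caller. The deposited signal is a height per peak of unstated scale and was used to rank and describe peaks within a list. The deposited q-value is on the −log10 scale. Read totals were not used here, so depth is unknown, it may differ between replicates, and no floor based on reads is given. Intervals cover counting of genes only. Lists on ce10 were not used.

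By signal, the 5017 IDR peaks were exactly the top 5017 of 30000 pooled regions. No region was identical between the replicates. A summit was called matched where another list had one within 100 bp. Motifs were searched on both strands, and coordinates are 1-based. With 1 group there was no contrast to test and no p-value was computed. Shares over all genes stand beside the counts for which they were computed. The members, the gene list and the settings were chosen with earlier results of these data known. Named genes were the members, their neighbours, the 8 listed genes with the strongest summit, the first 3 listed without one, and the 3 nearest in pattern; lin-39, eor-1 and adal-1 were added after their values were seen. nhr-25 was left out of the list because the strain carries a transgene of it. Window counts were tested on simulated data. Python 3.11.15, pandas 2.3.3, numpy 2.4.6 and scipy 1.17.1 were used. Alternatives were other window lengths, thresholds, match distances and each replicate alone.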

Additional observations from a re-analysis of the deposited data

How the results depend on the processing

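The absence of IDR peaks at aff-1 held in all 8 alternatives of window, threshold and replicate. Shorter or bounded windows and the 2508 strongest IDR peaks could not have added a summit. Only 20 kb upstream, 2 times as many pooled regions, interval overlap and each replicate alone could have. No promoter summit appeared at either gene in any of 6 alternatives. Shorter promoter windows and the strongest peaks again could not have added one, and any transcript's 5′ end hardly moved the windows of these genes. The eff-1 peak was found in both replicates under all 3 other match rules, which its distances of 0 and 33 bp fixed in advance. No half-site core appeared within 150 bp. The searches within 50 bp and for the extended core could not have found one, since none lay within 100 bp. The place of the eff-1 peak in the top list depended on the setting. The eff-1 count was 0 with 5 kb upstream and among the 2508 strongest IDR peaks, 2 with 20 kb upstream and 3 among 2 times as many pooled regions. With single replicates, each restricted to its 5017 strongest regions, it ranged from 0 (replicate 1) to 1 (replicate 2). The rank of the peak in replicate 1 was 6766. The same restriction left 0 summits at aff-1 in both replicates, as already counted above. The share of genes with more IDR summits than eff-1 was 29.9% with 5 kb, 15.8% with 20 kb, 5.39% with upstream sequence ended at the next gene, 25.8% with the 2508 strongest IDR peaks, 12.1% in the larger pooled list, 17.3% by overlap, and 16.7% to 39.8% with single replicates. For aff-1, and for all genes with at least 1, these shares were 29.9%, 55.2%, 21.2%, 25.8%, 54.8% and 41.2%. With upstream sequence ended at the next gene, 19.7% of genes were denser in IDR summits than eff-1 and 21.2% denser than aff-1. The share of the 34 listed genes with a summit was 58.8% with the 2508 strongest IDR peaks. In the promoter window it was 29.4% with those peaks (all genes 10.62%), 67.6% with any transcript's 5′ end (all genes 19.7%) and 17.6% with 500 bp upstream (all genes 11.2%). Without replicate 1 it was 52.9% (all genes 17.8%). In gene or 10 kb upstream it ranged from 82.4% to 85.3% over single replicates. No paired analysis was possible because there was 1 group. The depth of each library is unknown, so whether deeper libraries would give an IDR peak at aff-1 cannot be told.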
